A study of Mus musculus with 2 samples.

Results

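Nnt and 8 genes of antioxidant defence (Sod1, Sod2, Cat, Gpx1, Prdx3, Txnrd1, Txnrd2 and Gclc) were followed in snRNA-seq of the mouse heart, in which reads that cover a strain SNP had been assigned to the BL6 or the CAST allele. The genes were chosen by name, and 8 of the 9 were listed in both libraries, out of 24015 genes listed for the adult and 22691 for the aged heart. Gpx1, the cytosolic and mitochondrial glutathione peroxidase, was listed in neither, so no value is given for it. Its RefSeq locus on GRCm38 is short, 1263 bp on chromosome 9 from 108339080 to 108340342.

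The data come from F1 hybrid females with a C57BL/6J (BL6) mother and a CAST/EiJ (CAST) father, with 1 adult heart at 9 weeks and 1 aged heart at 78 weeks. The genotype label gives C57BL/6JxCAST/EiJ and the methods describe wild-type females, while the breed label names the C57BL/6J∆Xist-/+ cross of their parents. The values pool those sorted nuclei of each heart that were classed as having the BL6 X active, so they mix cardiac cell types. Each type counts by its nuclei and by the reads per nucleus. The class needed a minimum of X-chromosomal reads, so the mix may differ from that of the heart. With 1 library per age there was no test between ages, intervals cover the counting of reads alone, and less RNA per nucleus cannot be told apart from fewer nuclei of a type.

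NNT is a proton-pumping enzyme of the inner mitochondrial membrane that passes electrons from NADH to NADP+ and so supplies NADPH to the matrix. Superoxide leaking from the respiratory chain is turned into hydrogen peroxide by SOD2 in the matrix and SOD1 mainly in the cytosol. Peroxide is then removed by catalase, by glutathione peroxidases and by PRDX3, the peroxiredoxin of the matrix. The peroxidases are recharged with NADPH through thioredoxin reductases (TXNRD1 in the cytosol, TXNRD2 in mitochondria) and through glutathione, whose synthesis starts with GCLC. C57BL/6J mice are known for a deletion of several Nnt exons that leaves them without a working enzyme. The Xist line of the mothers is listed as B6;129 and was maintained on C57BL/6J, and neither labels nor methods say which Nnt allele it carried.

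SNP-overlapping reads numbered 9747535 for the adult and 5805807 for the aged heart. On the autosomes 53.4% of the adult and 53.8% of the aged reads came from BL6, so an allelic ratio (the BL6 share of the reads of a gene) near 0.53 is the level of a typical gene here. Reads were scaled to the total of all SNP-overlapping reads of the library and are given as RPM, on which 3 reads make 0.308 at 9 weeks and 0.517 at 78 weeks. On this scale the ratio of aged to adult RPM had a median of 1.17 over 12390 autosomal genes with at least 20 reads in both libraries, which is a shift of 0.22 on the log2 scale, and the quartiles were 0.868 and 1.57. The cardiac identity of the nuclei was plain in both libraries: 8 of 8 cardiomyocyte markers were listed and summed to 28571 RPM at 9 weeks and 26891 RPM at 78 weeks, a ratio of 0.941. This sum is weighted by the many reads of Ttn (ratio 0.580), while 6 of the 8 were higher at 78 weeks, with a median ratio of 1.15 and up to 4.11 for Actc1. Summed markers of fibroblasts (ratio 1.59), endothelial cells (1.59), macrophages (1.67), pericytes (1.69) and smooth muscle (3.00) were higher in the aged library. Those of lymphocytes (0.926), erythroid cells (0.896), adipocytes (0.886), skeletal muscle (0.693) and mesothelium (0.306) were lower, and hepatocyte markers had 6 and 14 reads. Of 5 lymphocyte markers 3 were higher, with a median ratio of 1.37, while Skap1 (172 and 30 reads) had 0.293. Skeletal muscle rests on 46 and 19 reads, with 1 of 3 listed markers higher. Single markers also went against the sum in fibroblasts (6 of 8 higher), endothelial cells (5 of 7), pericytes (3 of 4 listed) and adipocytes (1 of 4). The part of these shifts in the values of single genes was not tested.

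Nnt was by far the most covered of these genes, and its RPM was lower by more than 2-fold in the aged heart, by the same proportion on both alleles. The gene lies on the minus strand of chromosome 13 of GRCm38 from 119335527 to 119409257 and overlaps no other listed locus. It was covered by 5195 reads from BL6 and 3632 from CAST at 9 weeks, and by 1499 and 1054 at 78 weeks. At 9 weeks there were thus 3.73 times as many reads of Nnt as of the 7 other listed genes together, and at 78 weeks 1.76 times as many. Nnt stood at 906 RPM (95% Poisson interval 887 to 925) at 9 weeks and 440 RPM (423 to 457) at 78 weeks, so that the intervals are far apart. The ratio was 0.486 (0.464 to 0.508), a level 2.06-fold lower in the aged library. The other 7 genes together were at 243 RPM and 249 RPM.

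The 2 alleles of Nnt gave nearly the same ratio between the ages. BL6 reads went from 533 RPM (519 to 548) to 258 RPM (245 to 272), a ratio of 0.484 (0.457 to 0.513). CAST reads went from 373 RPM (361 to 385) to 182 RPM (171 to 193), a ratio of 0.487 (0.455 to 0.522). The allelic ratio was accordingly 0.589 (0.578 to 0.599) at 9 weeks and 0.587 (0.568 to 0.606) at 78 weeks, and the change, aged minus adult, was -0.0014 (Newcombe interval -0.023 to 0.020). Changes in allelic ratio whose interval leaves out 0 were found for 26.5% of the 12390 autosomal genes, and Nnt was not among them.

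The BL6 allele gave more SNP-overlapping reads of Nnt than the CAST allele in both libraries, by 1.43-fold at 9 weeks and 1.42-fold at 78 weeks. Both intervals lay above the autosomal BL6 share of their library, as did those of 13.7% of autosomal genes. By allelic ratio Nnt was nonetheless an ordinary gene, since 72.7% of the autosomal genes had a lower value at 9 weeks and 68.0% at 78 weeks. The lead of BL6 stayed under 1.5-fold, which was taken here as the limit for calling an allelic difference. GRCm38 is the sequence of C57BL/6J, and the longest coding transcripts of Nnt in GENCODE M21 on this build have 17 exons and 835 codons. Sequence that this reference lacks has no place in the counts, and reads are given per locus and not per exon, so neither exon content nor protein can be read from them. The part of the reference sequence in the BL6 lead was not tested.

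**Figure D1:**
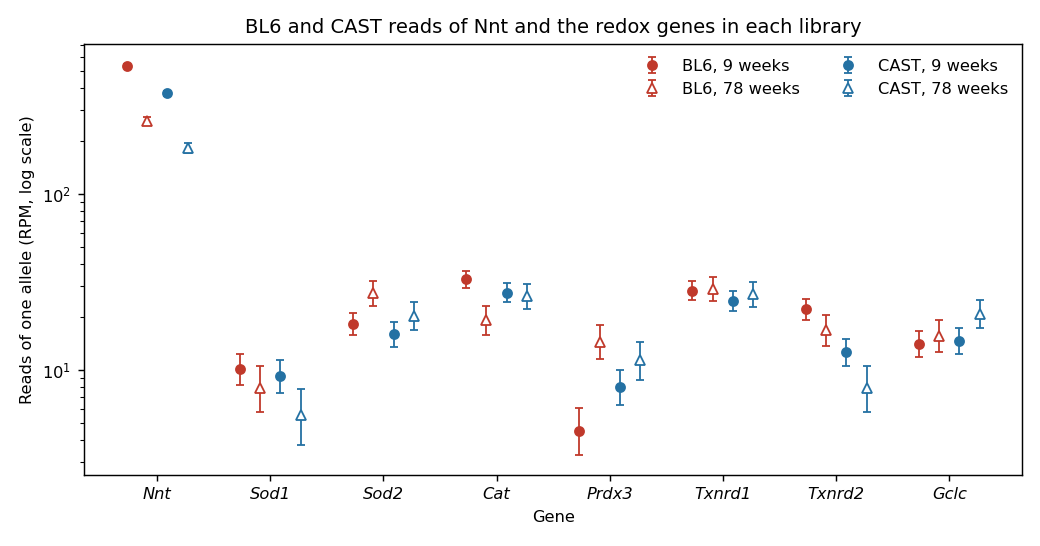
BL6 (red) and CAST (blue) reads of the 8 listed genes in RPM on a log scale, at 9 weeks (filled circles) and 78 weeks (open triangles), with exact 95% Poisson intervals. Nnt sits far above the other genes, and its 2 alleles move down by the same step, from 533 to 258 RPM for BL6 and from 373 to 182 RPM for CAST.

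Among all 12390 autosomal genes, 592 (4.78%) had a lower ratio than Nnt. Among deeply covered genes its position was similar, since of the 1601 genes with a mean of at least 1000 reads per library, which had a median ratio of 1.03, 105 (6.56%) lay below it. A ratio more than 1.5-fold below 1 was found for 11.7% of the autosomal genes and for 1 of the 8 listed genes of this group, Nnt. Scaled by the median gene, which takes the autosomal median to 1, it was found for 18.3% of the autosomal genes and for 4 of the 8 (Nnt, Sod1, Cat and Txnrd2). A ratio above 1.5 was found for 28.3% of the autosomal genes and also for 1 of the 8, Prdx3. Loci of 50 to 100 kb, the size class of Nnt (73731 bp), had a median ratio of 1.11, against 1.38 for loci under 10 kb and 1.00 for loci of 100 kb or more. Of the cardiomyocyte markers, Ttn, which encodes the giant sarcomere spring, also had a low ratio, 0.580, while Ryr2, the calcium release channel, and Myh6, the main adult myosin heavy chain, both had 1.15.

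The superoxide dismutase genes differed between the libraries in opposite directions. Sod1 (chromosome 16, 90220742 to 90226324, plus strand), the copper-zinc enzyme, was covered by 99 reads from BL6 and 90 from CAST at 9 weeks, and by 46 and 32 at 78 weeks. This was 19.4 RPM (16.7 to 22.4) against 13.4 RPM (10.6 to 16.8), a ratio of 0.693 (0.525 to 0.907). Sod2 (chromosome 17, 13007839 to 13018119, plus strand), the manganese enzyme of the matrix, was covered by 178 reads from BL6 and 155 from CAST at 9 weeks, and by 158 and 118 at 78 weeks. It stood at 34.2 RPM (30.6 to 38.0) and 47.5 RPM (42.1 to 53.5), a ratio of 1.39 (1.18 to 1.64). The ratio intervals of the genes do not meet, yet neither gene passed 1.5-fold, and 65.6% of autosomal genes had a lower ratio than Sod2. Their allelic ratios did not separate from the autosomal share in either library, at 0.524 (0.450 to 0.597) and 0.590 (0.473 to 0.700) for Sod1 and 0.535 (0.479 to 0.589) and 0.572 (0.512 to 0.632) for Sod2.

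The upstream sequences of these genes were searched for the core of the antioxidant response element, TGACNNNGC, through which the transcription factor NRF2 acts on many antioxidant genes. RefSeq promoter windows on GRCm38.p6, from 250 bases before to 50 after a start, were given for 7 of the 9 genes, and not for Nnt and Gclc. The motif was read on both strands and was found in 12.4% of all 32851 windows. Counted by gene, it was found for 2 of the 7 genes, Sod1 and Txnrd1, beside 14.0% of all gene symbols. All 7 genes together have 9 windows. The sites are shown with 9 flanking bases on either side, 5′ to 3′ on the strand of the motif, with the motif in capitals, beside those of Prdx1, a cytosolic peroxiredoxin, and Gclm, the partner subunit of GCLC.
Sod1 (chr16:90220697-90220723, opposite to the gene, 56 bases before the start on which its window is set): gcctgagtcTGACCACGCccaccttgg
Txnrd1 (chr10:82859105-82859131, opposite to the gene, 92 bases before one of its starts): gtgtcagaaTGACAAAGCaaaaatcca
Prdx1 (chr4:116685457-116685483, opposite to the gene): tacgggggaTGACTCAGCgctttccct
Gclm (chr3:122245414-122245440, opposite to the gene): cgtgagagtTGACGGTGCgcccgggag
Of a wider set of redox genes, described by role further on, 74 had a window. The motif was in at least 1 window of 17 of them (23.0%), against 14.0% of all 27025 gene symbols. By window the shares were 17% of 100 and 12.4%. The set holds a list of NRF2 control and target genes. A match describes letters and is no evidence of binding. The 4 genes shown had ratios between the libraries of 0.693 (Sod1), 1.06 (Txnrd1), 1.33 (Prdx1) and 1.11 (Gclm). Of these 4, Prdx1 alone lay above the autosomal median of 1.17. The other carriers of the motif were not set against that median.

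Of the enzymes that remove peroxide, Prdx3 was higher and Cat lower in the aged library, and in each a single allele carried most of the difference. Prdx3 (chromosome 19, 60864066 to 60874538, minus strand) was covered by 44 reads from BL6 and 78 from CAST at 9 weeks, and by 84 and 66 at 78 weeks. Its level was 12.5 RPM (10.4 to 14.9) at 9 weeks and 25.8 RPM (21.9 to 30.3) at 78 weeks, a ratio of 2.06 (1.61 to 2.64). BL6 reads had a ratio of 3.21 (2.20 to 4.73) and CAST reads of 1.42 (1.01 to 1.997). The allelic ratio passed from 0.361 (0.276 to 0.453), a lead of CAST, to 0.560 (0.477 to 0.641). Prdx3 rests on the fewest adult reads of the group, 122, so its intervals are wide.

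Cat (chromosome 2, 103453904 to 103485153, minus strand), the catalase of peroxisomes, was covered by 319 reads from BL6 and 268 from CAST at 9 weeks, and by 111 and 152 at 78 weeks. It stood at 60.2 RPM (55.4 to 65.3) and 45.3 RPM (40.0 to 51.1), a ratio of 0.752 (0.648 to 0.871). CAST reads were nearly level, at 27.5 RPM (24.3 to 31.0) and 26.2 RPM (22.2 to 30.7). BL6 reads were lower in the aged library, at 19.1 RPM (15.7 to 23.0) against 32.7 RPM (29.2 to 36.5). The allelic ratio was 0.543 (0.502 to 0.584) at 9 weeks and 0.422 (0.362 to 0.484) at 78 weeks, so that the order of the alleles was turned.

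The change in allelic ratio, aged minus adult, was 0.199 (0.080 to 0.310) for Prdx3 and -0.121 (-0.192 to -0.049) for Cat. These were the 2 of the 8 genes whose interval left out 0, a share close to the 26.5% of all autosomal genes. The interval held 0 for Nnt, Sod1, Sod2, Txnrd1, Txnrd2 and Gclc. By this measure a count of 2 of 8 thus does not stand out. The sizes of the changes of Prdx3 and Cat were not ranked among those of other genes. The intervals take each read as independent, and whether duplicate reads were collapsed is not known, so they may be too narrow.

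**Figure D2:**
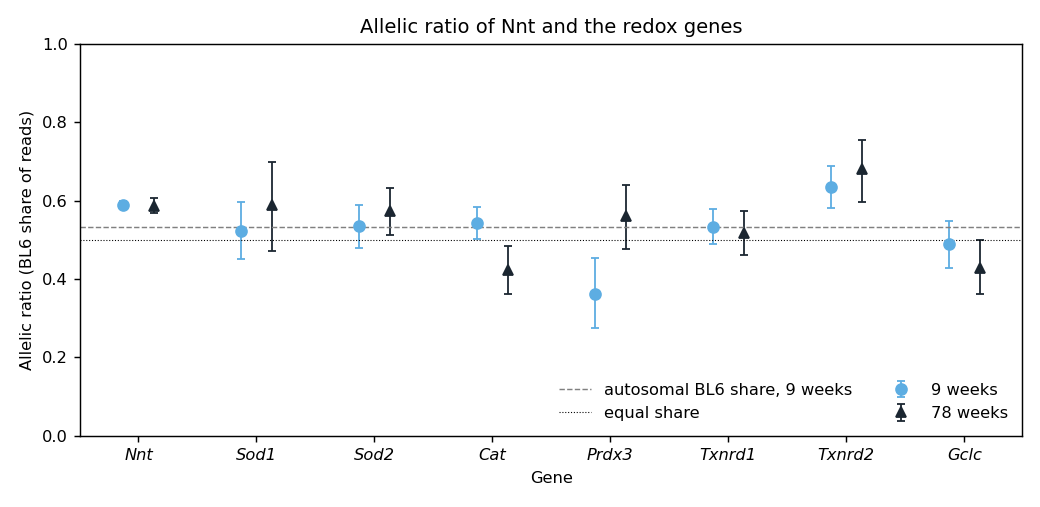
Allelic ratio (BL6 share of SNP-overlapping reads) of the 8 genes at 9 weeks (blue circles) and 78 weeks (dark triangles) with exact 95% Clopper-Pearson intervals; the dashed line is the autosomal BL6 share of the adult library and the dotted line an equal share. Nnt stays at 0.589 and 0.587 with short intervals, Txnrd2 lies highest at both ages, and Cat and Prdx3 change sides.

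The thioredoxin reductases, which are selenoproteins, differed in their alleles and in their ratios. Txnrd1 (chromosome 10, 82833951 to 82897724, plus strand) was covered by 275 reads from BL6 and 240 from CAST at 9 weeks, and by 168 and 156 at 78 weeks. It was at 52.8 RPM (48.4 to 57.6) and 55.8 RPM (49.9 to 62.2), a ratio of 1.06 (0.916 to 1.22), and its direction depends on the scale, since scaling by the median gene gave 0.904. Its allelic ratio of 0.534 (0.490 to 0.578) and 0.519 (0.463 to 0.574) held the autosomal share in both libraries. The loci Gm38560 and Eid3 lie within it and had 24 and 4 adult reads, too few to weigh in its values.

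Txnrd2 (chromosome 16, 18426417 to 18479073, plus strand) was the gene of the group with the strongest lead of BL6. It was covered by 215 reads from BL6 and 123 from CAST at 9 weeks, and by 98 and 46 at 78 weeks, a lead of 1.75-fold and 2.13-fold. It was the 1 gene of the 8 with more than 1.5-fold more BL6 reads in both libraries, a property of 15.0% of autosomal genes, and none of the 8 had such a lead of CAST in both, which 5.07% of autosomal genes had. The allelic ratio was 0.636 (0.582 to 0.687) and 0.681 (0.598 to 0.756). Its level was 34.7 RPM (31.1 to 38.6) at 9 weeks and 24.8 RPM (20.9 to 29.2) at 78 weeks, a ratio of 0.715 (0.584 to 0.872).

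Gclc (chromosome 9, 77754518 to 77794489, plus strand), the catalytic subunit of the enzyme that sets the rate of glutathione synthesis, was covered by 137 reads from BL6 and 143 from CAST at 9 weeks, and by 91 and 121 at 78 weeks. It stood at 28.7 RPM (25.5 to 32.3) and 36.5 RPM (31.8 to 41.8), a ratio of 1.27 (1.06 to 1.52). The allelic ratio was 0.489 (0.429 to 0.549) and 0.429 (0.362 to 0.499), and the aged interval lay below the autosomal share of 0.538 while the adult interval held it. Per allele, CAST reads had a ratio of 1.42 (1.11 to 1.82) and BL6 reads of 1.12 (0.846 to 1.46).

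**Figure D3:**
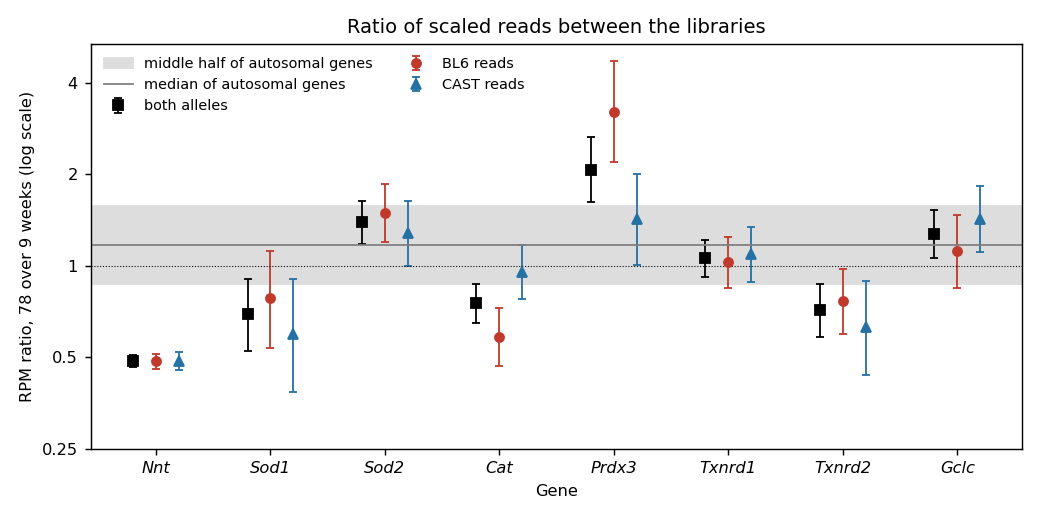
Ratio of aged to adult RPM on a log scale for reads of both alleles (black squares), BL6 reads (red circles) and CAST reads (blue triangles), with exact conditional 95% intervals; the grey line and band are the median (1.17) and the quartiles (0.868 and 1.57) of autosomal genes. Nnt lies at 0.486 with its alleles together, and Prdx3 (2.06) and Cat (0.752) show alleles that part.

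Of the 8 genes, 4 had a ratio interval wholly below 1 (Nnt, Sod1, Cat and Txnrd2) and 3 wholly above it (Sod2, Prdx3 and Gclc), against 20.6% and 42.6% of the autosomal genes. The median ratio of the 8 was 0.904, below the autosomal median of 1.17. Divided by the length of the locus, the adult levels ran from 12.3 RPM per kb for Nnt through 3.47 for Sod1, 3.32 for Sod2, 1.93 for Cat and 1.20 for Prdx3 to 0.828 for Txnrd1, 0.719 for Gclc and 0.659 for Txnrd2. Neighbours in this order whose counting intervals overlap are Sod1 and Sod2, Txnrd1 and Gclc, and Gclc and Txnrd2, and the number of SNPs per kb, which also sets these levels, was not used here. In the aged library the order was Nnt (5.96), Sod2 (4.62), Prdx3 (2.47), Sod1 (2.41), Cat (1.45), Gclc (0.914), Txnrd1 (0.875) and Txnrd2 (0.471), with overlapping intervals for Prdx3 and Sod1 and for Gclc and Txnrd1.

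Beyond these genes, 91 names in 7 lists by role were taken, of which 87 were listed and 78 reached 20 reads in each library. Of the 78, 14 had a ratio above 1.5 (17.9%) and 12 a ratio more than 1.5-fold below 1 (15.4%), beside 28.3% and 11.7% of autosomal genes. Their median ratio was 1.12, near the autosomal 1.17. By the median gene as scale the counts were 11 higher (14.1%) and 20 lower (25.6%), beside 18.01% and 18.3% of autosomal genes.

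Genes of NADPH supply were found on both sides. Of 15 measured, 3 were higher (20%, beside 28.3% of autosomal genes) and 4 lower (26.7%, beside 11.7%) past 1.5-fold, and the median ratio was 0.999. Besides Nnt the lower ones were Me3, a mitochondrial malic enzyme (247 to 102 RPM, ratio 0.415), Nadk2, the mitochondrial NAD kinase (0.601), and Aldh1l2, a mitochondrial folate enzyme that yields NADPH (0.270, from 137 adult and 22 aged reads). Idh2, the NADP-dependent isocitrate dehydrogenase of the matrix, had a ratio of 0.697. The higher ones were the cytosolic G6pdx (1.68) and Pgd (1.81) of the pentose phosphate pathway, with 44 reads in each library for G6pdx, and the mitochondrial folate gene Mthfd2l (1.51). Glud1, the glutamate dehydrogenase of the matrix, had a ratio of 1.45, so mitochondrial enzymes were found on both sides. This division by compartment was made after the values had been seen. Idh2 had an allelic ratio of 0.593 and 0.597, close to that of Nnt. Idh1, the cytosolic isocitrate dehydrogenase, favoured CAST with 0.385 and 0.370, and Glud1 favoured BL6 with 0.643 and 0.679.

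In the lists of peroxide removal, thioredoxin and glutaredoxin, glutathione, and superoxide dismutases the calls were few. A larger share was called among the NRF2 genes and the oxidant sources, which are described under other observations. Of 14 measured genes of peroxide removal, 1 (Prdx3) was higher (7.14%, beside 28.3% of autosomal genes) and 2 were lower (14.3%, beside 11.7%), Sesn1 (496 to 207 RPM, ratio 0.418) and Sesn3 (0.499), members of the stress-induced sestrin family. Among 11 thioredoxin and glutaredoxin genes 1 was called in each direction (9.09%, beside the same 28.3% and 11.7%). The methionine sulfoxide reductase Msrb3 was higher, from 339 to 716 RPM (ratio 2.11), with a locus that overlaps 2 others, and Txnrd3 was lower (0.609). Of 13 genes of glutathione synthesis and use, 1 was higher (7.69%, beside 28.3%) and 3 lower (23.1%, beside 11.7%). Of these Mgst3, a microsomal glutathione transferase, was lower (110 to 46.7 RPM, ratio 0.426), as were Gstm1 (0.560) and Gstk1 (0.618), and Ggt5, a gamma-glutamyltransferase, was higher with 57 adult and 142 aged reads (ratio 4.18). Of the 3 superoxide dismutase genes measured, the third of which was Ccs, the copper chaperone of SOD1 (1.44), none passed 1.5-fold.

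**Figure D4:**
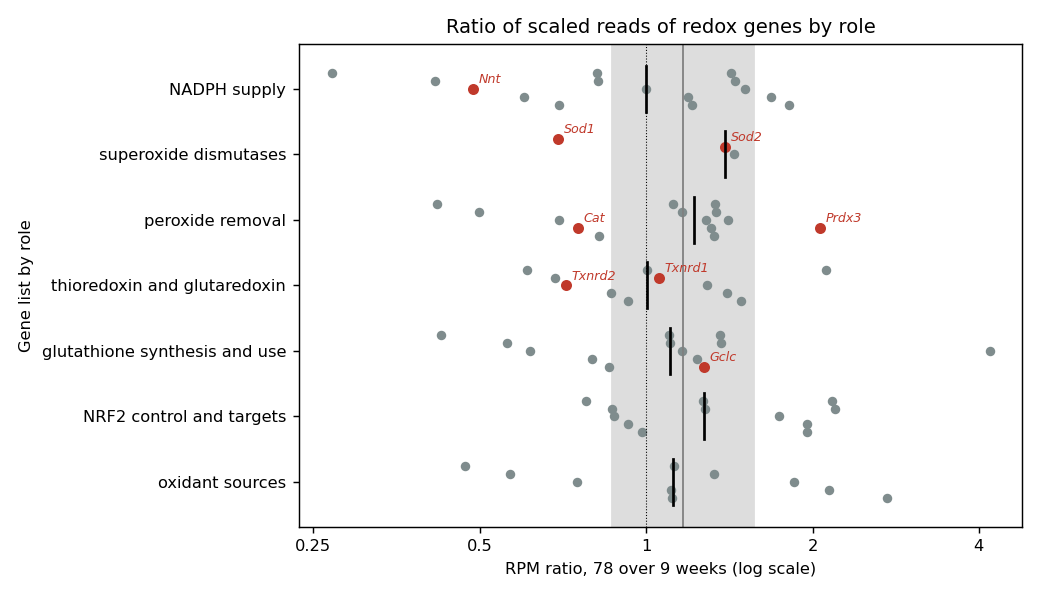
Ratio of aged to adult RPM on a log scale for the 78 measured redox genes, 1 point per gene by role, with the listed genes of this report in red and the median of each list as a black bar; the grey line and band are the autosomal median (1.17) and quartiles. Nnt lies among the lowest genes of NADPH supply, whose median is 0.999, and the medians of the lists run from there to 1.39 for the superoxide dismutase genes.

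The loci beside Nnt had higher ratios between the libraries than Nnt, and most had other allelic ratios. Within 1 Mb on either side, 16 other loci were listed and 9 reached 20 reads in each library. Their ratios between the libraries ran from 0.722 (Hmgcs1, 281 kb away, which encodes a cholesterol synthesis enzyme) to 1.81 (Fgf10, a growth factor gene on the other side), and 1 of the 9 was below 1. The interval of Hmgcs1 (0.511 to 1.01), which reached lowest, lay above that of Nnt. Paip1, which encodes a partner of the poly(A)-binding protein and starts 19.0 kb from the edge of Nnt, had a ratio of 1.05 and an allelic ratio of 0.524 (0.485 to 0.563) and 0.573 (0.523 to 0.621). 4833420G17Rik, 52.8 kb away, had a much stronger lead of BL6, 0.736 (0.702 to 0.768) and 0.867 (0.833 to 0.895). Fgf10 had an allelic ratio of 0.491 and 0.327. The allelic ratios of the 9 loci spanned 0.326 to 0.788 at 9 weeks and 0.216 to 0.867 at 78 weeks, so no common allelic level was seen along this stretch. At both ages 1 of the 9, Gm41077 (0.567 and 0.602), a locus that overlaps another, had intervals that held the allelic ratio of Nnt.

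**Figure D5:**
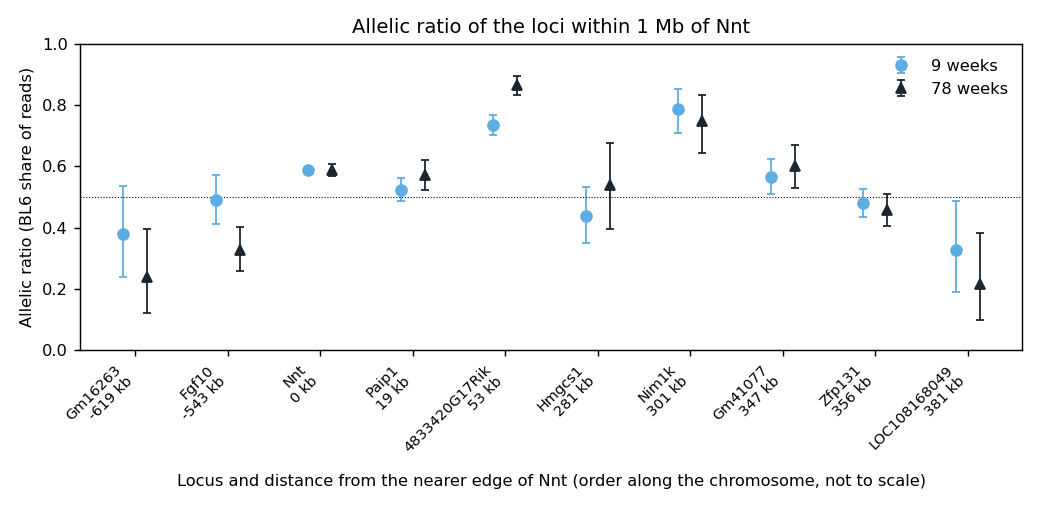
Allelic ratio with exact 95% intervals of Nnt and the 9 measured loci within 1 Mb, in their order along the chromosome with the distance from the nearer edge of Nnt in kb; blue circles are 9 weeks and dark triangles 78 weeks. The values of neighbouring loci scatter on both sides of Nnt, from 0.326 to 0.788 in the adult library.

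The autosomal genes most like Nnt over 4 values, the log2 RPM of the BL6 and CAST reads in both libraries, were Ccdc141, Ank3, Cpeb3, Inpp4b and Zfp521, in this order of distance (0.205 to 0.430). Ccdc141, the nearest, had 930 RPM at 9 weeks and 459 RPM at 78 weeks, a ratio of 0.494, with an allelic ratio of 0.612 and 0.626. The ratios of the others were 0.534 (Ank3), 0.450 (Cpeb3), 0.389 (Inpp4b) and 0.605 (Zfp521). Likeness over 4 values from 2 libraries describes level and allele use alone, and the loci of Ccdc141, Ank3 and Cpeb3 overlap others.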

How the data were processed

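Nuclei of 1 adult and 1 aged heart were measured by snRNA-seq (10x Genomics 3′ kit). Cell Ranger 7.1.0 was used by the authors for alignment to mm10 (GRCm38), after which nuclei with an active BL6 X were pooled and passed through Allelome.PRO2 on RefSeq genes. The authors removed doublets with DoubletFinder and ambient RNA with CellBender from the count matrices used for cell types, whereas the allelic counts were made from the aligned reads, and no caller was run here. The deposited values are raw counts of BL6, CAST and total SNP-overlapping reads per gene, the deposited allelic ratio as a fraction rounded to 2 decimals, and a deposited allelic score that was not used. Strand use and collapse of duplicate reads are not given in the sources used here. The deposited starts count from 0 and are printed here from 1.

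Allelic ratios, RPM and ratios (aged over adult) were computed with Python 3.11.15, pandas 2.3.3 and scipy 1.17.1, with exact 95% intervals (Clopper-Pearson, Poisson, conditional binomial) and Newcombe intervals for differences, on functions tested on simulated data. Background shares are over autosomal genes with at least 20 reads in both libraries. The genes and lists were chosen with earlier results of these data known. Named were the 9 genes, the redox lists, loci within 1 Mb of Nnt, the 5 genes most like Nnt and, from the lists, up to 10 genes with at least 100 reads past 1.5-fold in either comparison. Ttn, Ryr2, Myh6 and further genes of the lists were chosen after their values were seen. Alternatives were other scales, folds, read minimums, centring, thinning and removal of overlapping loci. The aged file name carries another age than the labels, which were used. An item withheld from this text is not reported here.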

Additional observations from a re-analysis of the deposited data

How the results depend on the processing

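The precision rests on 1 library per age and on few reads for most genes, from 122 to 587 in the adult library outside Nnt. No paired analysis was possible because each age has 1 library and no test was made. Over the scales, each of which multiplies every gene alike, the ratio of Nnt ran from 0.416 to 0.486. Scaled by the median gene the ratios of its BL6 and CAST reads were 0.415 and 0.417, and by the upper quartile 0.440 and 0.442. Genes of the group past 1.5-fold lower numbered 1 by RPM and 4 by the median gene (Nnt, Sod1, Cat and Txnrd2). By the upper quartile they numbered 3. Over all autosomal genes these 3 scales gave 11.7%, 18.3% and 15.6% lower. From BL6 reads alone 2 of the 8 were lower, beside 13.9% of autosomal genes, and from CAST reads 3, beside 14.6%. From CAST reads 0 of the 8 were higher, beside 29.5% of autosomal genes. At a limit of 25% more in place of 1.5-fold, 4 were lower, 3 higher and 2 (Nnt and Txnrd2) had more BL6 reads in both libraries, and at a fold of 2 the number with more BL6 reads was 0 of 8. Txnrd1 went from 1.06 to 0.904 by the median gene.

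Of the redox lists, 25.6% were lower by the median gene. At 25% more and at a fold of 2, 42.3% and 8.97% were higher, 26.9% and 8.97% lower, 24.7% and 5.48% had more BL6 and 11.0% and 1.37% more CAST reads. More BL6 reads were found for 7.02% of loci without overlap, and more CAST reads for 8.22% after division by the autosomal odds. Over all autosomal genes the median gene gave 18.01% higher and 18.3% lower, 25% more and a fold of 2 gave 44.0% and 11.6% higher, 19.8% and 5.17% lower, 27.4% and 6.55% with more BL6 and 9.00% and 2.33% with more CAST reads, and the autosomal odds gave 9.90% and 7.90%. Without a read minimum 18.6% were lower and 23.0% had more BL6 reads, and at 100 reads 3.23% had more CAST reads. Of called genes, 70.8% were higher by RPM, 57.8% by the upper quartile and 49.6% by the median gene, and for the lists 53.8%, 43.3% and 35.5%. The causes were not tested.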

Other observations

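Of 12 measured genes of NRF2 control and targets, 5 were higher past 1.5-fold (41.7%, against 28.3% of autosomal genes), 0 were lower (beside 11.7%), and the median ratio was 1.27. Hmox2, the constitutive heme oxygenase, had 61.8 RPM in the adult and 121 RPM in the aged library (ratio 1.96) at an allelic ratio of 0.601 and 0.621, with a locus that overlaps another. Ftl1, the ferritin light chain, had 33.3 and 65.3 RPM (1.96) with a strong lead of BL6, 0.865 and 0.876, and reads of its near-identical copies could be shared with it. Keap1, the repressor of NRF2, had a ratio of 2.20 and Mafg, a partner of NRF2, of 2.17, both from under 100 reads per library. Nfe2l2, the gene of NRF2 itself, was level at 74.8 and 73.4 RPM. With it, 7 of the 12 genes stayed within 1.5-fold. The others were Nqo1 (1.27), Blvrb (1.28), Sqstm1 (0.927), Fth1 (0.873), Bach1 (0.868) and Nfe2l1 (0.777).

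Of 10 measured oxidant sources, 3 were higher (30%, near the 28.3% of autosomal genes) and 2 lower (20%, beside 11.7%). Nos3, the endothelial nitric oxide synthase, had a ratio of 2.73 and P4hb, a protein disulfide isomerase, of 2.14. Aox1, an aldehyde oxidase, had a ratio of 0.470 with a steady lead of BL6, 0.743 and 0.742, and the X-linked Maob, a monoamine oxidase of the outer mitochondrial membrane, had a ratio of 0.566. Nox4, an NADPH oxidase, had 151 and 114 RPM (0.751). Cyba was the other higher gene (1.85) and Cybb had a ratio of 1.11, both from under 100 reads per library. Endothelial markers summed to a ratio of 1.59, and their part in the value of Nos3 was not tested.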
